A study of Zea mays with 24 samples.

Results

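A set of 90 maize (Zea mays) genes changed at least 2-fold under salinity in the roots of both cultivars studied, in the same direction. In the young shoots of both cultivars, their mean level plus 1 FPKM stayed within 1.5-fold, so that low levels could change more. The members were picked from the measured values themselves. For each cultivar and tissue, L is log2 of the ratio of mean FPKM + 1 under salinity to mean FPKM + 1 under water, where FPKM is a read number scaled to the length of the feature and to the total of the library. A member has an absolute L of at least 1 with the same sign in SS roots and ST roots, and a ratio of the same means within 1.5-fold in both SS shoots and ST shoots. The rule was applied to the 44146 features with Zm00001d identifiers, less 3 that it names as left out, among 50202 features in all. Of the 90 members, 50 rose in roots and 40 fell. Because all 4 salinity contrasts went into the choice, their values are given below as a description and not as a test. RNA came from roots and young shoots of seedlings of the cultivars SS and ST at the 3-leaf stage, given water or a salinity solution of 100 mM. The 8 groups were SS roots, ST roots, SS shoots and ST shoots, each under water and under salinity, with 3 libraries each. The labels give no genotype beyond the cultivar name, no plant age in days, no length of treatment and no number of plants per library.

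Roots meet a salt solution first. Sodium and chloride enter through the outer root cell layers, and the lowered water potential of the solution slows water uptake before ions accumulate. Plants are known to answer in the root with changes in ion transport, water channels, cell wall and hormone genes, abscisic acid being the best known hormone in this response, while shoots receive the stress later, through the xylem and through long-distance signals. The members are known here by identifier only: the reference gene table matched 0 of the 90, and no role is given to any of them. Gene lists for nitrate uptake, water channels, ion transport and other pathways, and markers for the check of each tissue label, could not be looked up for the same reason.

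Library totals ran from 19747198 to 28825226 reads, recovered from the FPKM values as whole reads. Across features, Pearson coefficients between replicate libraries of a group were 0.9953 to 0.9978 on the log2 scale, and none of the 24 replicate pairs was identical. The series calls the replicates biological; what separates them is not given, so that p-values measure the spread between these libraries. In whole tissues, fewer cells of a type and less RNA per cell cannot be told apart.

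In roots, the libraries of the 2 treatments did not overlap for any of the 90 members in either cultivar, which was also so for 52.5% of all features tested in SS roots and 50.8% in ST roots. The limma test called all 50 rising members higher and all 40 falling members lower in both roots, at an adjusted p under 0.05. Across all features tested in roots, 19.7% were called higher and 19.0% lower in SS, and 26.1% higher and 19.7% lower in ST. The median L of the rising members was 1.5 in SS roots and 1.4 in ST roots, that of the falling members -1.54 and -1.5, against 0 and 0.03 over all Zm00001d features tested. The choice of members fixed this, so nothing is read from it. Only 3 rising and 4 falling members had an absolute L of at least 2 in both roots.

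**Figure D1:**
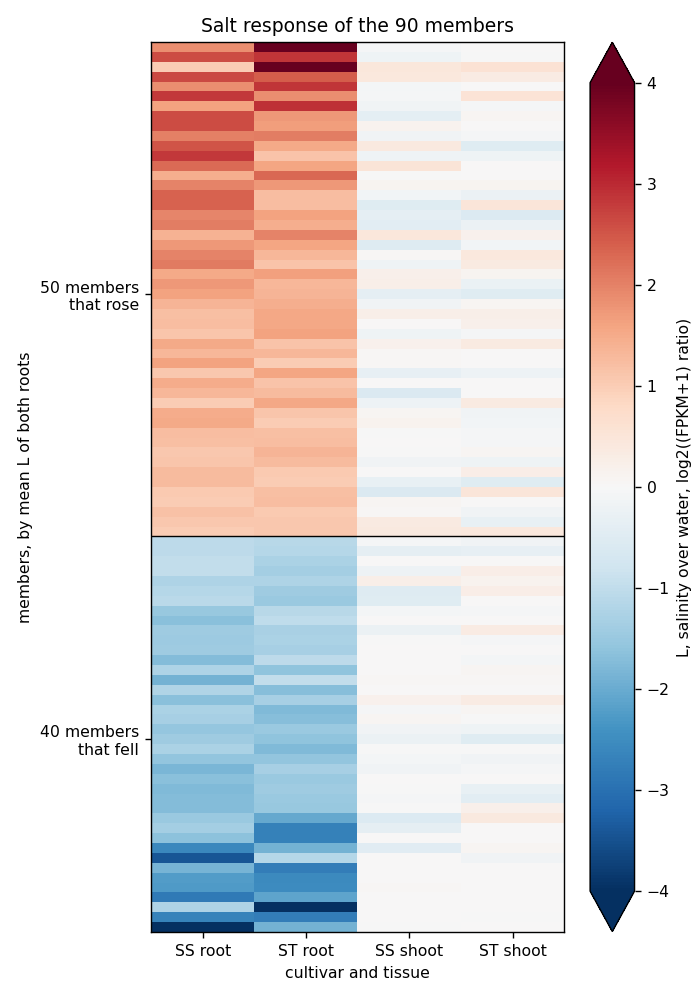
Heat map of L (log2 ratio of mean FPKM + 1, salinity over water; red higher, blue lower, colours end at 4 and -4) for the 90 members, ordered by the mean L of both roots, in SS and ST roots and shoots. The 50 members that rose lie above the line and the 40 that fell below it, and the shoot columns stay pale because the rule keeps them within 1.5-fold.

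Zm00001d031877 had the largest mean L of both roots among rising members, with a much larger L in ST. Its level in ST roots was 0.944, 0.778 and 1.06 FPKM under water and 67.8, 71.2 and 66.5 FPKM under salinity. In SS roots it was 0, 0 and 0.327 FPKM, on 0 to 3 reads, under water, and 2.34, 3.3 and 3.44 FPKM, on 20 to 33 reads, under salinity. The groups lay apart in both cultivars, with L of 5.17 in ST and 1.86 in SS, but the SS level under water rests on 3 reads in 1 library. The ratio of salinity to water means was 74.0 in ST and 27.7 in SS. Adding 1 FPKM to each mean shrinks the SS change more, and the SS ratio is uncertain at so few reads. In the 12 shoot libraries it had 1 read in all.

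Zm00001d037909 rose by nearly the same amount in both cultivars. SS roots held 2.04, 2.08 and 1.28 FPKM under water and 18.4, 15 and 14.9 FPKM under salinity. ST roots held 1.7, 1.57 and 1.98 FPKM under water and 16.7, 23.9 and 16.4 FPKM under salinity. All 6 salinity libraries thus stood several-fold above all 6 water libraries, with L of 2.61 in SS and 2.87 in ST. This gene was expressed in shoots too, at 8.68 ± 0.605 FPKM under water and 7.63 ± 0.202 FPKM under salinity in SS (SD, n = 3 libraries), and at 1.98 ± 0.516 and 1.94 ± 0.408 FPKM in ST.

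The falling member with the largest mean L was Zm00001d044801. In SS roots it stood at 39.3, 39.2 and 36.8 FPKM under water and at 0.723, 0.801 and 0.743 FPKM under salinity. ST roots started lower, at 3.85, 2.3 and 3.07 FPKM. Under salinity the ST libraries had 0, 4 and 2 reads, which is 0, 0.184 and 0.0838 FPKM. The ratio of water to salinity means was 50.9 in SS and 34.5 in ST, whereas L was -4.49 and -1.9, since adding 1 FPKM to each mean shrinks the change of a low gene.

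A closer match between the cultivars was seen in Zm00001d023215. Its values were 31.7, 34.0 and 30.2 FPKM under water and 4.5, 3.2 and 4.96 FPKM under salinity in SS roots. In ST roots they were 30.3, 32.1 and 49.9 FPKM and 4.22, 5.41 and 4.37 FPKM. One ST water library, replicate 3, stood above the other water libraries, and no water library came near a salinity library. L was -2.66 in SS and -2.76 in ST, and the 12 shoot libraries held at most 1 read each.

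**Figure D2:**
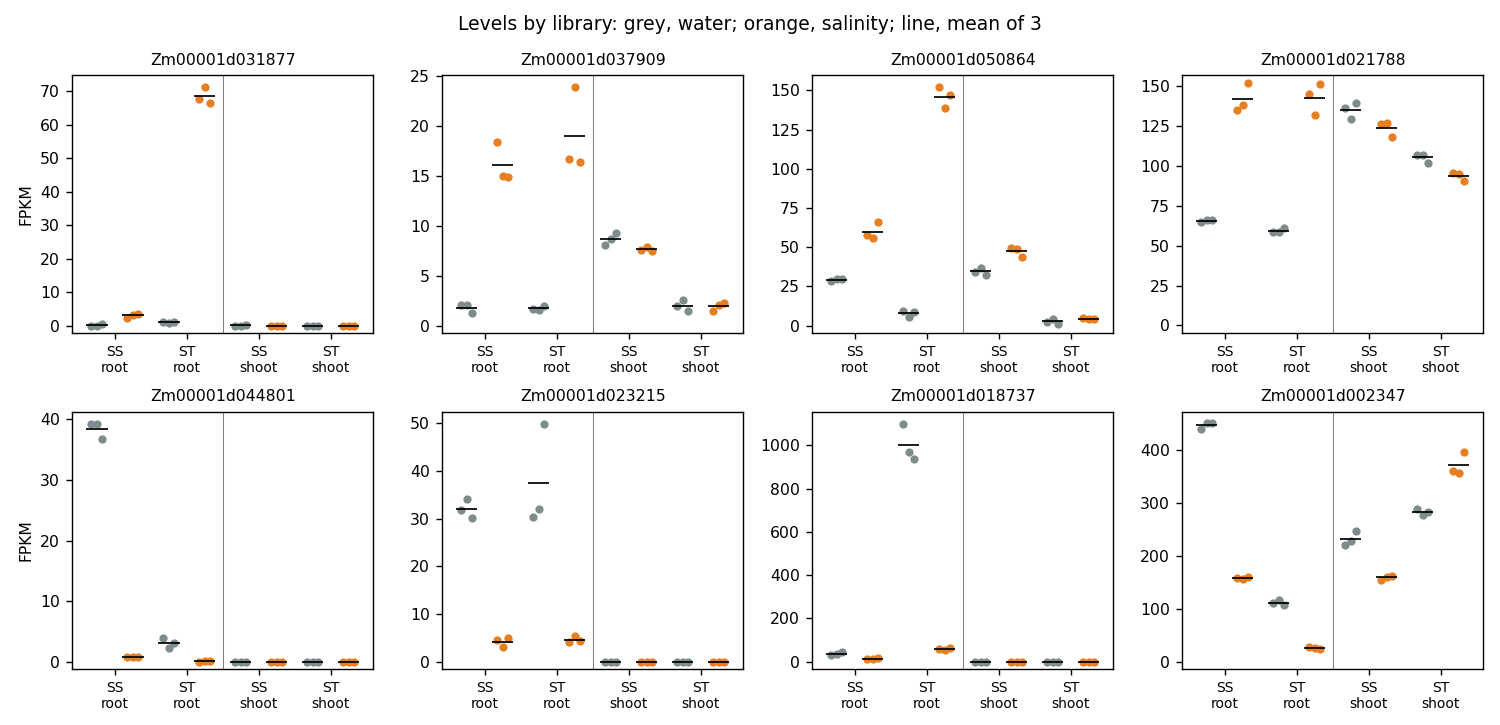
FPKM of 8 members in every library, with roots left and shoots right of the grey line in each panel; grey points are water, orange points salinity, and the black line is the mean of 3 libraries. Zm00001d031877 reaches 66.5 to 71.2 FPKM only in ST roots under salinity, Zm00001d018737 falls from 934 to 1099.7 FPKM under water to 56.7 to 62.0 FPKM under salinity in ST roots, and Zm00001d002347 is expressed in all 8 groups.

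The size of the response differed between the cultivars from member to member rather than in one direction. Of the rising members, 28 had the larger L in SS and 22 in ST, and of the falling members 19 had the larger absolute L in SS and 21 in ST. The gap between the 2 absolute L values was below 0.5 for 29 rising and 26 falling members. These differences come from the contrasts of the rule and were not tested. They also depend on the 1 FPKM added to each mean, which shrinks L more at low levels. In plain ratios of the means the order of the cultivars turned for some members. Besides Zm00001d031877, the most unequal rising member was Zm00001d050864. SS roots held 28.5, 29.6 and 29.4 FPKM of it under water and 57.6, 55.9 and 66.3 FPKM under salinity, an L of 1.01. ST roots went from 9.36, 5.65 and 8.43 FPKM to 152, 139 and 147 FPKM, an L of 4.06. The cultivar with the lower level under water thus had the higher level under salinity.

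Among falling members Zm00001d018737 was the most unequal. ST roots held 1099.7, 969 and 934 FPKM under water and 59.5, 56.7 and 62.0 FPKM under salinity. SS roots held 29.5, 37.1 and 44.7 FPKM under water and 14.4, 13.4 and 18.2 FPKM under salinity. The groups did not overlap in either cultivar, and the ratio of water to salinity means was 16.9 in ST and 2.41 in SS. All 12 shoot libraries had 0 reads of this gene, which allows a shoot level of at most 3 reads over their summed depth; for the 5 members with 0 shoot reads that floor was 0.00796 to 0.0336 FPKM, for counting error only.

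**Figure D3:**
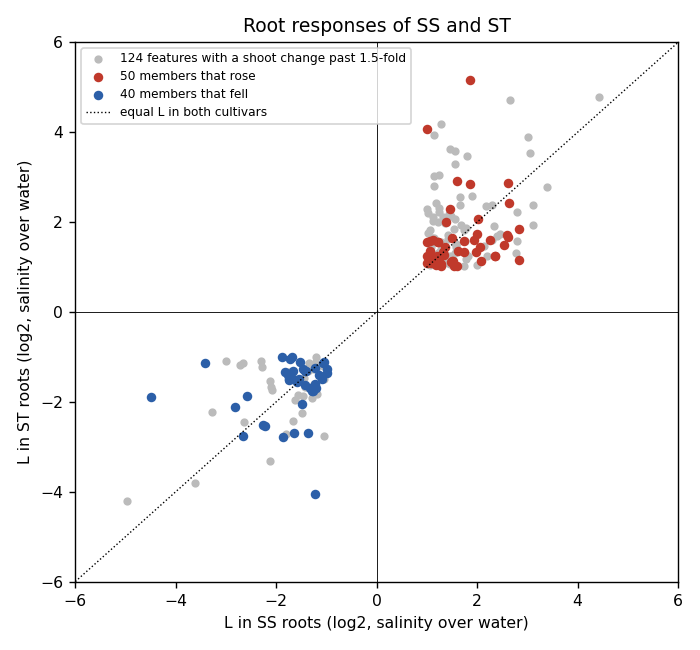
L in SS roots against L in ST roots (both log2, salinity over water) for the 214 features that meet the root condition: 50 members that rose in red, 40 that fell in blue, and 124 left out for a shoot change in grey. Points on the dotted line have equal L in both cultivars; Zm00001d031877 (1.86, 5.17) and Zm00001d018737 (-1.22, -4.05) lie far off it on the side of the larger absolute L in ST.

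The falling members took more reads in sum under water, and the rising members more under salinity. In summed mean FPKM the order turned in SS roots only. Under salinity, SS roots had a summed mean FPKM of 1527 for falling and 1877 for rising members. ST roots had 1733 for falling and 1282 for rising members. The mean over the 12 root libraries, water and salinity together, had a median of 18.82 FPKM among falling and 9.96 FPKM among rising members. Over all Zm00001d features tested in roots it was 10.09 FPKM. The 40 falling members together had a summed CPM, the recovered reads scaled to the library total, of 4084.8 to 4164.1 in SS roots under water and 1606.6 to 1649.5 under salinity. For ST roots these ranges were 4007.4 to 4240.3 and 1282.4 to 1612.3. The 50 rising members had a summed CPM of 815.4 to 835.6 in SS roots under water and 2401.3 to 2455.1 under salinity, and 623.4 to 650.1 and 1720.1 to 1780.9 in ST roots. Falling members took the larger share of reads in all 6 water libraries and rising members in all 6 salinity libraries, and no water library overlapped a salinity library in either sum. The members were chosen for their rise or fall between these same libraries, which sets the direction of both sums. A fall also needs a level under water to fall from. The sums are therefore a description, and nothing is read from their separation.

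The most abundant falling members were Zm00001d017508 and Zm00001d047639. Zm00001d017508 stood at 486, 469 and 443 FPKM under water and 128, 130.0 and 119.6 FPKM under salinity in SS roots. It stood at 1164, 1365 and 1386 FPKM and at 665, 668 and 619 FPKM in ST roots, where its L of -1 lay at the threshold. This transcript reached over 1100 FPKM in ST roots while the shoots held 2 reads of it in all 12 libraries. Zm00001d047639 went from 562, 569 and 577 FPKM to 275, 270.3 and 255 FPKM in SS roots, and from 414, 454 and 506 FPKM to 156, 195 and 136 FPKM in ST roots. The 2 cultivars thus shared both its high level and its fall, with L of -1.09 and -1.49.

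The most abundant rising members were Zm00001d025654 and Zm00001d034388. Zm00001d025654 rose from 78.8, 80.3 and 80.6 FPKM to 219, 225 and 227 FPKM in SS roots, and from 48.8, 40.8 and 42.3 FPKM to 94.5, 101 and 89.8 FPKM in ST roots. Zm00001d034388 started at overlapping levels in both cultivars, with 71.2, 68.7 and 71.2 FPKM in SS roots and 69.8, 75.8 and 69.7 FPKM in ST roots under water. It ended at 141, 142 and 144 FPKM in SS and at 158, 144 and 156 FPKM in ST. Its L values, 1.01 and 1.08, are close to the threshold.

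A small L in shoots came about in 2 ways: 46 of the 90 members were hardly expressed in shoots, and 42 reached 1 FPKM in some shoot libraries. The 46 were under 1 FPKM in all 12 shoot libraries, and the 42 were at 1 FPKM or more in at least 3 of them; 2 rising members lay between. Only 15 members were at 5 FPKM or more in all 12. Some of the 42 were under 1 FPKM in every ST shoot library, and in low ones a small L can hide a larger relative change. For Zm00001d010284 in ST shoots the ratio of water to salinity means was 2.33, at an L of -0.47. Falling members were under 1 FPKM throughout the shoots in 28 of 40 cases (70.0%) and rising members in 18 of 50 (36.0%), compared with 12% of all Zm00001d features tested in roots. A gene near 0 meets the shoot condition whatever its relative change, so low shoot genes are favoured by it. Of the 214 features meeting the root condition, before the shoots are looked at, 36.4% of the 77 that fell and 13.1% of the 137 that rose were under 1 FPKM in all shoot libraries. With 0.1 in place of 1 added to each mean, the rule gave 142 members, 82 rising and 60 falling, and 57 were on both lists (63.3% of the 90 and 40.1% of the 142). All 33 members that then dropped out did so through a shoot change of 1.5-fold or more, and 18 of them had shoot means of at most 1 FPKM in every group.

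The members expressed in shoots were called there about as often as features in general. Among the 42 tested there, 5 were called higher and 16 lower under salinity in SS shoots, 50% of them, against 56.6% of all features. In ST shoots 13 were called higher and 6 lower, 45.2% of them, against 41.7% of all features; without ST salinity replicate 1 the 13 became 8. Median-of-ratios scaling moved the higher share of all called features in SS shoots from 59.3% to 47.4%, and that of called members from 23.8% to 19%. The rule caps these changes, so they too are a description. The sign of L was opposite in SS and ST shoots for 12 of the 30 rising and 7 of the 12 falling members of this kind.

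Zm00001d002347 was the most abundant member in shoots among those that fell in roots. In SS roots it fell from 439, 450.1 and 451 FPKM to 158, 157 and 159.7 FPKM, and in ST roots from 110.4, 116 and 108 FPKM to 28.1, 26.2 and 24 FPKM. SS shoots went from 221, 229 and 247 FPKM to 155, 161 and 162 FPKM, an L of -0.54 in the same direction as the roots. ST shoots went from 288, 278 and 282 FPKM to 359.9, 357 and 397 FPKM, an L of 0.39 in the other direction, and neither shoot pair overlapped. In the second such member, Zm00001d049554, both cultivars moved the same way in shoots as in roots. SS shoots went from 18.5, 17.4 and 19.2 FPKM to 15, 15.9 and 15.5 FPKM, and ST shoots from 25.8, 24.9 and 26 FPKM to 17.6, 18 and 18.8 FPKM. Its root levels fell from 47.8 ± 1.28 to 17.2 ± 0.496 FPKM in SS and from 35.2 ± 0.572 to 10.8 ± 0.52 FPKM in ST (SD, n = 3), so that ST was the lower cultivar in roots and the higher one in shoots.

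Among rising members the highest shoot levels were those of Zm00001d021788 and Zm00001d042371. Zm00001d021788 rose from 65.1, 66.0 and 66.0 FPKM to 135, 138 and 152 FPKM in SS roots and from 58.5, 58.5 and 61.2 FPKM to 145, 132 and 151 FPKM in ST roots. SS shoots already held 136, 129.6 and 139.7 FPKM under water, and ST shoots 107, 107 and 102 FPKM. Roots under salinity, at 132 to 152 FPKM, thus overlapped the range that SS shoots had without it. Zm00001d042371 rose from 2.46, 1.8 and 2.4 FPKM to 10.1, 8.9 and 10.3 FPKM in SS roots and from 1.78, 1.65 and 1.46 FPKM to 6.55, 7.37 and 6.49 FPKM in ST roots, far below the 201 ± 8.85 and 60.5 ± 3.07 FPKM of SS and ST shoots under water (SD, n = 3).

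**Figure D4:**
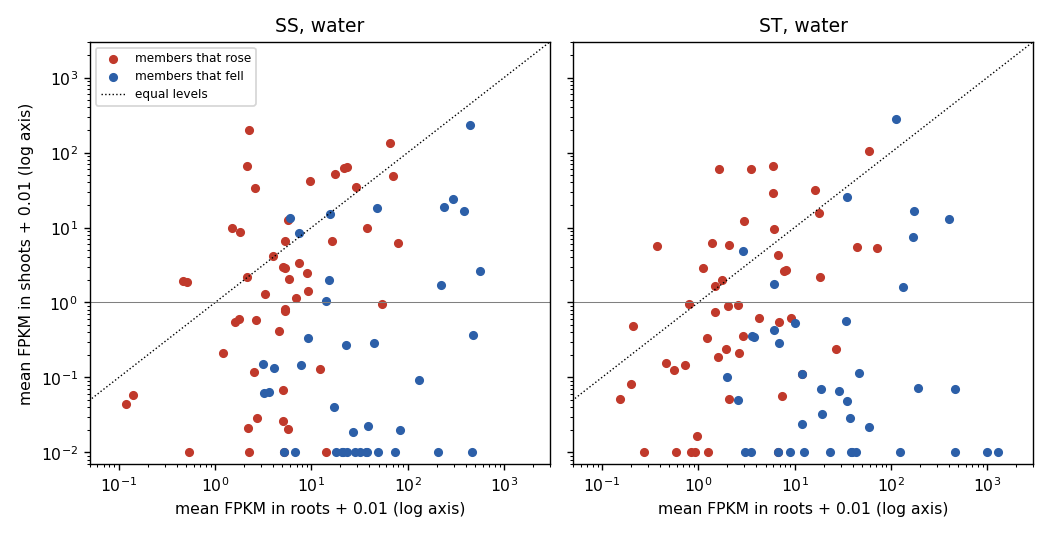
Mean FPKM + 0.01 in shoots against roots under water, both on log axes, for SS (left) and ST (right); red points are members that rose in roots, blue points members that fell, the dotted line marks equal levels and the grey line 1 FPKM in shoots. Most blue points lie far below the dotted line, many of them at the bottom where shoots had 0 reads, while red points spread on both sides of it.

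The rule compares no tissues, but it bears on their difference. A member that falls needs a root level of at least 1 FPKM under water, and a gene near 0 in shoots meets the shoot condition. The calls between tissues under water are therefore a description and support nothing about the members. Of the 40 falling members, 28 of which were under 1 FPKM in every shoot library, 37 were called lower in shoots in SS and 38 in ST, with 1 and 2 called higher (limma, adjusted p under 0.05). Of the 50 rising members, 31 were lower and 14 higher in SS shoots, and 31 lower and 13 higher in ST shoots. Over all 29127 features tested, 57.3% were lower and 24.9% higher in SS shoots, and 63.6% lower and 21.5% higher in ST shoots. With median-of-ratios scaling the difference of the median feature moved by 0.41 (SS) and 0.56 (ST), which raised the higher share of all called features from 30.3% to 47.3% and from 25.3% to 47.6%; among called members it went from 18.1% to 23.5% and from 17.9% to 23.5%. In SS, 17 rising members had a lower mean in roots than in shoots under water, and 11 of them a higher mean in roots than in shoots under salinity. In ST these counts were 16 and 9. The reverse crossing, from above the shoot level to below it, was seen for 2 falling members in each cultivar. The rule fixes which way a member can cross, so these counts too are a description.

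The cultivars differed in the level of most members, and ST was more often the lower one. In roots under water, 55 of the 90 members were called lower in ST and 17 higher (limma, adjusted p under 0.05), that is 61.1% and 18.9%, while 31.4% of all features tested were lower and 39.4% higher. The median difference, ST minus SS on the log2(FPKM + 1) scale, was -0.65 for rising members, -0.28 for falling members and 0.07 for all features. Under salinity 52 members were lower and 24 higher in ST roots, against 30.8% and 42.6% of all features, with medians of -0.86, -0.35 and 0.09. In both treatments 46 of the 90 members were lower in ST, as were 22.4% of all features tested, and 13 were higher, against 29.0%. Opposite calls under water and under salinity were made for 6 members, against 5.82% of all features. Reads from a cultivar whose sequence differs from the reference may be counted less fully, and the part of such differences in these values was not tested.

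**Figure D5:**
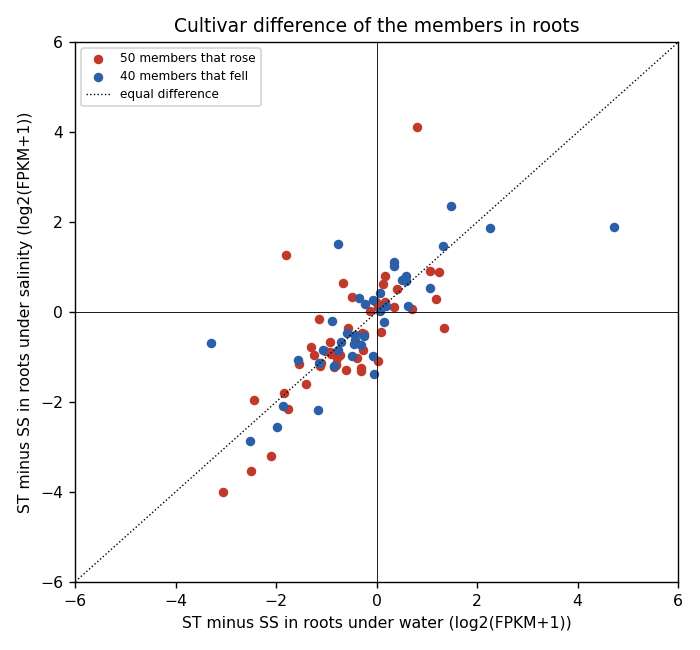
ST minus SS difference in roots, on the log2(FPKM + 1) scale, under water (horizontal axis) and under salinity (vertical axis) for the 50 members that rose (red) and the 40 that fell (blue). Points below and left of the zero lines are lower in ST under both treatments; the dotted line marks an equal difference, and Zm00001d018737 (4.73 under water, 1.89 under salinity) and Zm00001d044801 (-3.29 and -0.69) lie far off it.

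Taken separately for rising and for falling members, the 2 with the largest cultivar differences in roots under water were lower in ST in 3 of the 4 cases. Zm00001d007700, a rising member, stood at 15.2, 14.7 and 12.8 FPKM in SS roots and at 0.955, 0.886 and 0.648 FPKM in ST roots, a difference of -3.06 (SE 0.08, limma adjusted p = 1.32e-12). Under salinity it reached 92.3, 91.4 and 91.8 FPKM in SS and 4.68, 4.56 and 5.17 FPKM in ST, so that the ratio of salinity to water means was alike, 6.45 and 5.79, at levels that remained far apart. Zm00001d010284 behaved in the same way, with 8.28, 11.0 and 8.18 FPKM in SS and 0.512, 0.882 and 1 FPKM in ST under water (-2.5, SE 0.12, limma adjusted p = 6.55e-10), and ratios of 6.28 and 5.1.

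Of the falling members, Zm00001d018737 was higher in ST roots under water by 4.73 (SE 0.13, limma adjusted p = 3.64e-12), and Zm00001d044801 was lower by 3.29 on the same scale (log2 difference -3.29, SE 0.12, limma adjusted p = 3.77e-11). In both genes the cultivar that started higher fell further on the log2(FPKM + 1) scale. For Zm00001d044801 the ST level under salinity rests on 0 to 4 reads per library. Its ratios of water to salinity means, 50.9 in SS and 34.5 in ST, therefore cannot be ordered with any certainty. Under salinity the difference of Zm00001d018737 was 1.89 (SE 0.13) at a limma adjusted p of 3.67e-08, and that of Zm00001d044801 was -0.69 (SE 0.12) at a limma adjusted p of 0.000149. Of the 2 abundant falling members, Zm00001d017508 was higher in ST roots under both treatments, by 1.48 under water and 2.36 under salinity (limma adjusted p = 5.89e-10 and 5.41e-12). For Zm00001d050864 the order of the cultivars turned: ST was lower under water by -1.8 on the log2 scale and higher under salinity by 1.27 (limma adjusted p = 3.79e-08 and 1.13e-06).

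In shoots under water, 30 of the 42 members tested were lower in ST and 6 higher (limma, adjusted p under 0.05), that is 71.4% and 14.3%, where 45.0% of all features were lower and 35.0% higher. The median difference was -0.98 among rising and -0.93 among falling members, and -0.09 over all features. Lower calls in both tissues were made for 21 of these 42 members, against 23.6% of the 22902 features tested in both tissues, and higher calls in both for 2, against 23.2%. Some of the 42 passed the filter through SS shoots only, such as Zm00001d047639, at 2.61 FPKM in SS and 0.0612 FPKM in ST under water. Entry through SS alone favours lower calls in ST, so these shoot counts are a description and support nothing about the members. Zm00001d034388, whose root difference between cultivars was 0.03 (SE 0.05, limma adjusted p = 0.617), stood at 50.4, 49.0 and 47.0 FPKM in SS shoots and 5.15, 5.76 and 5.2 FPKM in ST shoots (log2 difference -2.97, SE 0.05, limma adjusted p = 8.64e-15). Zm00001d037909 was not called between cultivars in roots (-0.02, SE 0.15, limma adjusted p = 0.928) and was lower in ST shoots (-1.71, SE 0.12, limma adjusted p = 1.6e-08). The difference between cultivars differed between shoots and roots for 64.5% of all features, in a comparison added after the data were seen. For 5 of the 42 members the calls in the 2 tissues were opposite and this comparison was called too. Opposite calls, whether or not this comparison was called, were made for 12.3% of the features tested in both.

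Members with neighbouring identifiers were looked for, since near-identical copies can share reads, and the sources used here do not say how such reads, or those of overlapping and antisense genes, were counted. Identifier numbers at most 5 apart joined 13 members into 6 groups, and the members of each group changed in the same direction. These groups were chosen after their values were seen. Neighbours among all features were not counted, so the shared direction is not read as a trait of the members. Zm00001d038177 and Zm00001d038178, with numbers 1 apart, shared a pattern: L was 1.97 and 2.83 in SS roots and 1.33 and 1.85 in ST roots, and ST shoots under water held 6.27 ± 0.778 and 12.3 ± 0.847 FPKM against 1.94 ± 0.428 and 4.16 ± 0.614 FPKM in SS shoots (SD, n = 3). Zm00001d031877 and Zm00001d031878 did not: the second had L of 1.5 in SS roots and 1.65 in ST roots, at 5.0 ± 0.264 and 16.0 ± 0.764 FPKM in SS and 1.95 ± 0.302 and 8.24 ± 0.428 FPKM in ST, without the steep ST response of the first. Zm00001d046137, Zm00001d046138 and Zm00001d046142 all fell in roots, and the third alone was expressed in shoots, at 8.31 ± 0.144 FPKM in SS and 1.77 ± 0.301 FPKM in ST under water. The median feature length of the members was 962.5 bases, in a range of 165 to 5084 bases, against 1543 bases over all Zm00001d features tested in roots. The features meeting the root condition, whatever their shoots did, were as short, with medians of 1020 bases for those that rose and 945 bases for those that fell.

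At the edges of the rule, membership turned on small differences. The rising member nearest the root threshold was Zm00001d009066, with L of 1.003 in SS and 1.244 in ST roots, and the nearest non-member Zm00001d044308 had 1.532 and 0.984. On the falling side Zm00001d032221 lay inside at -1 and -1.349, its SS value just past the threshold, and Zm00001d031621 outside at -0.988 and -1.087. At the shoot threshold Zm00001d028469 lay inside with an L of -0.574 in SS shoots and Zm00001d016661 outside with 0.588 in ST shoots. For falling members the corresponding pair was Zm00001d002347, at -0.54 in SS shoots, and Zm00001d011734, at -0.632 in ST shoots. Leaving out each of the 24 libraries in turn gave 87 to 92 members, and 71 of the 90 were members every time.

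Of the 214 features that meet the root condition, 124 were left out by their shoots, 87 that rose and 37 that fell. Among the 87, 38 rose in both shoots as well, by 1.5-fold or more, 28 passed that size in SS shoots only, 13 in ST shoots only and 8 in both without following the roots in both. Among the 37 the counts were 10, 13, 9 and 5. The mirror rule takes features past 2-fold in both shoots and within 1.5-fold in both roots, again on mean FPKM + 1. It gave 69 features, 26 that rose and 43 that fell. Rises thus outnumbered falls in the root set, and falls outnumbered rises in the shoot set. Under 1 FPKM in every library of the quiet tissue were 29.0% of the shoot set and 51.1% of the root set. These counts were not tested against each other.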

How the data were processed

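Sequencing used 150 bp paired-end reads, per the series' design text. The authors deposited 1 FPKM table per library; TopHat2, Cufflinks and Cuffdiff are named without role or version and the build as B73 RefGen v3, per the submitters' processing notes. The tables hold an identifier and a value, so no coordinates are printed. Whole reads, lengths and totals were recovered for 40810 of 40811 features above 0, within 0.05 reads; 1 count is called a read, though it may be a fragment. A low count limits each level; floors are 3 reads.

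The test was limma (version 3.58.1, under R version 4.3.3; variances moderated with a mean trend) on log2(FPKM + 1). Benjamini-Hochberg adjustment ran over every feature reaching 1 FPKM in 3 or more of the libraries fitted: the 12 libraries of a tissue, or all 24 between tissues. All 90 members passed this filter in roots and 42 in shoots. The fit was tested on simulated data. The members, the lists and the tests were chosen with earlier results of these data known. Named members were the top 2 per direction by mean absolute L, root level, shoot level, cultivar difference under water and unequal L, plus those at each threshold; any other is said to be chosen after its values were seen. Alternatives were a pseudocount of 0.1, other filters, median-of-ratios scaling, voom on recovered reads, a replicate block and each library left out. Tables were handled with pandas 2.3.3 and numpy 2.4.6 and plots drawn with matplotlib 3.10.9, under Python 3.11.15.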

Additional observations from a re-analysis of the deposited data

Results flagged for a closer look

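For 5 members the difference between ST and SS under water was called in opposite directions in roots and shoots, and the difference of these differences was also called (limma adjusted p under 0.05, fit of all 24 libraries, a comparison added after the data were seen). Since opposite calls chose these members, that call adds no separate evidence, and 64.5% of all features had it. Opposite calls, whether or not the difference of differences was called, were made for 12.3% of the features tested in both tissues. The count of 5, among 42 members so tested, is therefore not read as a trait of the members. Shoots minus roots, on the log2(FPKM + 1) scale, the difference of differences was 2.27 for Zm00001d002347 and 0.89 for Zm00001d049554. Both were lower in ST roots and higher in ST shoots. It was 1.69 for Zm00001d038178, which had the same pattern, and -1.76 for Zm00001d012109 and -0.77 for Zm00001d018727, both higher in ST roots and lower in ST shoots. The last 3 were chosen after their values were seen. Zm00001d018727 stood at 1.15 ± 0.349 FPKM in SS shoots and 0.603 ± 0.155 FPKM in ST shoots (SD, n = 3), on 10 to 31 reads per library, so that its shoot difference is limited by depth.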

How the results depend on the processing

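Of 460 recomputed counts of members, 453 stayed within 1.5 times the reported one. The exceptions were the number of members with a pseudocount of 0.1 (142) or with an FPKM of at least 1 in 3 shoot libraries required (42), against 90. With any FPKM above 0 tested, 11 members were called lower under salinity in ST shoots and 11 higher in ST than in SS shoots under water, against 6 and 6, since 85 members were then tested. With an FPKM of at least 5 required, 19 were lower in ST shoots under water, against 30, with 27 tested. With voom, 22 members had a higher difference between cultivars in shoots than in roots, against 38; the cause was not tested. Leaving out 1 library gave 8 to 13 members called higher in ST shoots under salinity, the 8 without ST salinity replicate 1.

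Of 2184 recomputed differences of named members, 2169 kept their direction and call, 14 lost the call and 1 turned: Zm00001d049554, lower in ST shoots than in ST roots as deposited, was 0.21 higher after median-of-ratios scaling. Same-numbered replicates showed no shared deviation (Pearson -0.1 to 0.13 over 48 pairs), which cannot show whether they were grown or handled together. A replicate block left 55 members lower and 17 higher in ST roots under water, as without it.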
